A study of Mus musculus with 8 samples.

Results

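The nuclear-encoded respiratory chain was taken as the protein-coding genes whose symbol begins with Nduf followed by a, b, c, s or v, with Uqcr, with Cox4 to Cox8 or with Atp5, together with Sdha, Sdhb, Sdhc and Sdhd. This name rule gave 93 of the 50686 genes in the count table. By function they are 36 subunits of complex I, 4 of complex II, 8 of complex III, 20 of complex IV and 16 of complex V, together with 8 complex I assembly factors (Ndufaf1 to Ndufaf8) and Atp5s, which is known as coupling factor B. Ndufa4 and its paralog Ndufa4l2 carry complex I names but were placed with complex IV, where the Ndufa4 protein is now known to sit. Of the 93 genes, 88 had enough counts to be tested. RNA came from hematopoietic stem cells (HSCs), the rare marrow cells that maintain the blood lineages, of C57BL/6J mice. All groups shared 1 preparation: bone marrow was depleted of mature lineages, stained with antibodies to CD150, CD48, Sca-1 and CD117 and sorted in G0/1, and RNA of 10000 cells per library was amplified with a Clontech v4 low-input kit. The labels name no treatment, genotype change or age. The Small and Large gates took the lowest and highest 10% of cells by size, the Medium gate took cells within 10% of the mean size, and All cells were not separated by size. Each of the 4 groups had 2 libraries, numbered 1 and 2. Whether the 2 libraries of a group came from separate animals or sorts is not stated, and the p-values then reflect variation among these libraries alone, which may be technical.

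The respiratory chain sits in the inner mitochondrial membrane. Complex I takes electrons from NADH and complex II takes them from succinate. Both pass them through coenzyme Q to complex III, then through cytochrome c to complex IV, which reduces oxygen. Complexes I, III and IV pump protons, and complex V, the ATP synthase, makes ATP from the returning flow. Most subunits are encoded in the nucleus and imported, while the core of complexes I, III, IV and V also needs subunits made from mitochondrial DNA; complex II is wholly nuclear. HSCs at rest are known for low mitochondrial respiration and for raising it when they leave quiescence.

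Libraries held 13698362 to 16838448 counts. Across all genes they separated first by replicate number, with 39.5% of the variance on that component, so medians over all members and over each complex are also given within number 1 and within number 2, as log2 CPM of 1 library against 1. CPM are counts per 1000000, scaled to the TMM-corrected size of the library, so every value is relative to the other transcripts of its library, and RNA per cell was not measured. In bulk samples, fewer cells of a type and less RNA per cell cannot be told apart. The 10 HSC markers checked were detected in all 8 libraries and summed, in CPM, to 823 and 1831 for Large 1 and 2, 1580.0 and 2524 for Medium, 1577 and 3179.8 for Small and 1438 and 3417 for All. Genes of primary granules and myeloid progenitors (Mpo, Elane, Prtn3, Ctsg and Ms4a3) are called primary granule genes below for short. All 5 were detected in every library, at abundant and uneven levels. Their CPM sums were 27755 and 11503 for Large 1 and 2 and 9358 and 4140.3 for Medium. For Small they were 20109 and 5369, and for All 9138 and 334. The 8 mature granulocyte genes summed to between 15366 and 48532 CPM in the libraries numbered 1 and between 3291 and 11252 in those numbered 2. Of the 8 B cell genes, 7 were above 0 in every library, the defining marker Pax5 was at 0 in some, and the sum was 4045 CPM in Large 2 against 208 to 1207 elsewhere. All 8 erythroid genes were detected in every library, at sums of 1335 to 2342 CPM in the libraries numbered 1 and 338 to 585 in those numbered 2. Cd48, whose protein marks progenitors outside the stem cell gate, was at 12.05 to 159 CPM.

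Large HSCs had a higher relative abundance of respiratory chain transcripts than Small HSCs in nearly every gene, by a modest amount. No single gene passed edgeR's test. The median fitted log2 fold change over the 88 tested members was 0.49 (a fold of 1.40), against 0.00 over all 16066 genes tested, and it was 0.37 within number 1 and 0.65 within number 2. Coding length moved with this value: 817 other genes with coding sequences as short as those of the shorter members had a median of 0.25, and 829 with transcripts as short as theirs, by the median over a gene's protein-coding transcripts, had 0.12. Within both numbers 84 of 88 members were higher in Large, against 32.9% of all genes, and 0 were lower (31.2% of all genes). In 20 of 88 both Large libraries lay above both Small libraries, against 17.7% of all genes, which is near the background, and in 0 below them (14.7% of all genes). edgeR's quasi-likelihood test called 0 members (0% of all genes), with adjusted p of at least 0.975. At an unadjusted p under 0.05 there were 2 members, Ndufaf4 and Atp5g2, both higher (1.77% of all genes were); 0 were lower at that level (1.38% of all genes). Without the replicate number as a block, DESeq2, limma-voom and limma-trend also called 0 members, while they called 12, 0 and 1 of all 16066 genes. On the scale of a library's median deviation, defined as the median over genes of log2 CPM minus the gene's own mean over the 8 libraries, the members stood at 0.50 and 0.07 in Large 1 and 2, 0.24 and -0.04 in Medium, 0.12 and -0.59 in Small and 0.16 and -0.44 in All. Large 1 was the highest and Small 2 the lowest, and Large 2 lay below Small 1, so the gates overlapped across numbers. Members were higher in number 1 than in number 2 by a median of 0.51. Leaving out 1 library therefore changes the balance of numbers: the median was 0.92 without Small 1, 0.18 without Small 2 and 0.23 without Large 1. Primary granule genes were also higher in Large than in Small (median 0.89; 0.82 within number 1 and 1.10 within number 2), as were 6 genes of replicating cells such as Pcna and Mcm7 (median 0.88; 0.67 within number 1 and 1.16 within number 2). HSC markers were lower (median -0.79; -1.08 within number 1 and -0.73 within number 2, 8 of 10 lower in each number). These are transcript levels, which do not count cells of a type, and their part in the respiratory chain values was not tested.

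**Figure D1:**
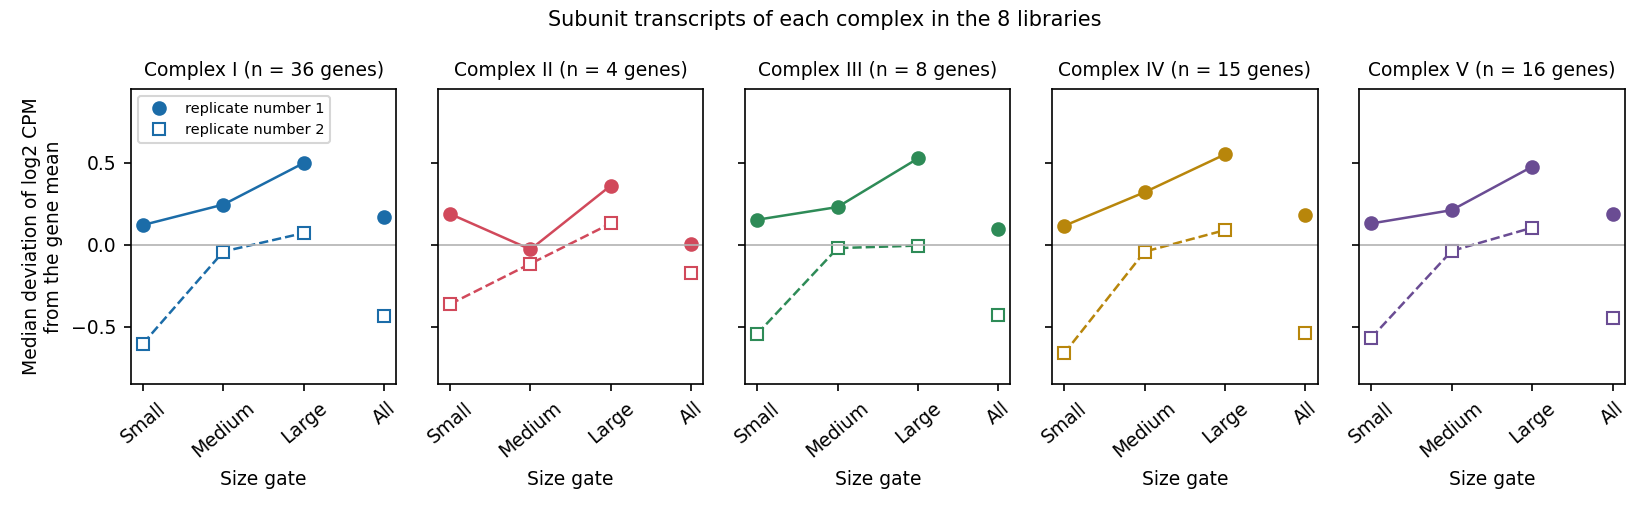
Each panel shows 1 complex; the y axis is the median over its tested subunits of log2 CPM minus the gene's mean over the 8 libraries, the x axis the size gate, filled circles replicate number 1 and open squares number 2, with lines joining Small, Medium and Large of a number. Within each number Large is highest in every panel, and complex II is the panel in which Medium does not lie above Small in number 1 (-0.03 against 0.19).

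By complex, the Large against Small median was 0.47 for complex I (36 genes), 0.33 for complex II (4), 0.43 for complex III (8), 0.55 for complex IV (15 tested) and 0.49 for complex V (16). For complexes I to V in turn they were 0.33, 0.20, 0.37, 0.46 and 0.37 within number 1 and 0.65, 0.53, 0.46, 0.78 and 0.70 within number 2. Within both numbers, Large was above Small for 36 of 36, 4 of 4, 8 of 8, 14 of 15 and 16 of 16 of these subunits (32.9% of all genes). Both Large libraries lay above both Small libraries in 7 of 36, 1 of 4, 0 of 8, 3 of 15 and 8 of 16, against 17.7% of all genes. The complex IV gene that was not higher within both numbers was Cox7a1, a muscle form with at most 2.16 CPM in any library. The medians of complexes I, III, IV and V differ from each other by less than the SD between replicate libraries, which was 0.40 to 0.45 for these 4 complexes. That SD holds a shift between numbers which the complexes shared, so it does not measure a difference between complexes. Complex IV had the highest median within both numbers. Without Small 1 the complex medians were between 0.63 (complex II) and 1.02 (complex IV), and without Small 2 those of the same complexes were 0.13 and 0.24. No test was made between complexes, since genes are not replicates.

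Complex I was followed by the modules in which it is assembled. The NADH-oxidising module, which carries the flavin and the first iron-sulfur clusters, had a Large against Small median of 0.42 over 10 genes (0.28 to 0.71). Ndufv1, which binds NADH and the flavin, had 242 and 216 CPM for Large 1 and 2, 182 and 172 for Medium, 195 and 156 for Small and 164 and 149.9 for All. Both Large libraries were above the 6 others for this gene (log2 0.38, SE 0.19; such values in brackets are fitted fold changes of Large against Small with their standard error). Ndufs1, the large iron-sulfur subunit, had 295 and 209.6 CPM for Large 1 and 2, 196 and 159 for Medium, 248 and 126 for Small and 206 and 152 for All. Its Large libraries overlapped those of Small but lay above both Medium libraries. Ndufs6, an accessory subunit with the highest difference of this module, had 126 and 75.8 CPM for Large 1 and 2, 99.8 and 77.4 for Medium, 80.3 and 43.1 for Small and 85.6 and 52.2 for All, and Ndufs4, another accessory subunit, the lowest, with 109 and 90.6 CPM for Large 1 and 2, 104 and 90.8 for Medium, 92.9 and 71.8 for Small and 99.4 and 93.7 for All.

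The quinone-reducing module, which hands electrons to coenzyme Q, had the lowest median of the 4 parts of complex I, at 0.35 over 6 genes. Ndufs3 of this module had 113 and 99.6 CPM for Large 1 and 2, 99.6 and 94.96 for Medium, 98.5 and 82.8 for Small and 90.5 and 85.3 for All, the smallest difference of any complex I subunit (log2 0.23, SE 0.19). Both of its Large libraries lay above both Small libraries. Ndufs7, which holds the last iron-sulfur cluster before the quinone, had 199 and 149 CPM for Large 1 and 2, 164 and 158 for Medium, 164 and 104 for Small and 157 and 132 for All, and Ndufs8, which carries further clusters, had 200.4 and 171 CPM for Large 1 and 2, 164 and 163 for Medium, 175 and 119 for Small and 163 and 139 for All. In Ndufs7 and Ndufs8, Large 2 lay below Small 1.

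Accessory subunits of the membrane arm had medians of 0.48 for 9 proximal and 0.56 for 11 distal genes. Ndufb6, a distal subunit, had the highest of complex I, with 191 and 119.7 CPM for Large 1 and 2, 140.0 and 94.5 for Medium, 125 and 62.6 for Small and 134 and 73.2 for All (log2 0.73, SE 0.46). Ndufab1, the mitochondrial acyl carrier protein, had 223 and 148 CPM for Large 1 and 2, 179 and 122 for Medium, 156 and 95.5 for Small and 169 and 108 for All (log2 0.56, SE 0.37). For both genes the 4 libraries numbered 1 were above those numbered 2 of the same gate, and Small 2 and All 2 were the 2 lowest. For Ndufb5 and Ndufb9 the Large libraries lay above the Small ones without overlap, with 171 and 117 CPM for Large 1 and 2 and 108 and 76.05 for Small for the former and 301 and 228 CPM for Large 1 and 2 and 217 and 136 for Small for the latter.

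The 8 complex I assembly factors caught by the name rule were more mixed, with a median of 0.31 and 6 of 8 higher in Large within both numbers (32.9% of all genes). Ndufaf4 (chromosome 4, 24898083 to 24905001 of GRCm38), an early assembly factor, had 80.3 and 52.9 CPM for Large 1 and 2, 68.7 and 45.8 for Medium, 42.8 and 33.6 for Small and 58.6 and 47.5 for All. Its Small libraries were the 2 lowest of the 8 libraries, and the difference was 0.80, SE 0.32 on the log2 scale (edgeR unadjusted p = 0.0419, adjusted p = 0.975). Ndufaf7, a methyltransferase, had 56.7 and 50.04 CPM for Large 1 and 2, 50.7 and 54.9 for Medium, 51.99 and 56.9 for Small and 44.4 and 40.6 for All (log2 -0.03, SE 0.21), the member closest to no difference. Ndufaf5 likewise had 16.2 and 14.1 CPM for Large 1 and 2 and 13.9 and 15.1 for Small. Atp5s had 34.95 and 34.4 CPM for Large 1 and 2, 41.2 and 43.2 for Medium and 27.2 and 38.3 for Small, and its difference between Large and Small changed sign between the numbers (0.36 and -0.16).

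Complex II, succinate dehydrogenase, belongs both to the respiratory chain and to the tricarboxylic acid (TCA) cycle and has no subunit encoded in mitochondrial DNA. Among the 3 gates its 4 genes were highest in Large within both numbers, and within number 1 they stood lower in Medium than in Small. Within number 2, Sdhb, Sdhc and Sdhd stood higher in Medium than in Small and Sdha lower. Sdha (chromosome 13, 74322254 to 74350280), the flavoprotein that oxidises succinate, had 812 and 744 CPM for Large 1 and 2, 593 and 621 for Medium, 693 and 718 for Small and 691 and 668 for All. Large was above Small in both libraries and Medium was below Small in both, with 0.14, SE 0.16 for Large against Small, 0.36, SE 0.16 for Large against Medium and -0.22, SE 0.16 for Medium against Small. Sdhb, the iron-sulfur subunit, had 317 and 276 CPM for Large 1 and 2, 258 and 238 for Medium, 279.7 and 190.4 for Small and 249.9 and 202 for All. The membrane anchor Sdhc had 105 and 92.2 CPM for Large 1 and 2, 75.4 and 77.1 for Medium, 93.9 and 64.3 for Small and 71.7 and 79.4 for All, and the other anchor, Sdhd, had 499 and 304 CPM for Large 1 and 2, 315 and 229 for Medium, 348 and 196 for Small and 348 and 218 for All. For Sdhb and Sdhc both Large libraries were above both Medium libraries, while Large and Small overlapped. Over the 4 genes the median was 0.37 for Large against Medium, with 4 of 4 higher within both numbers (32.9% of all genes), and -0.03 for Medium against Small (-0.19 within number 1 and 0.24 within number 2), with 0 of 4 higher within both numbers (30.1% of all genes). Leaving out a library kept the first between 0.22 and 0.44, while the second was 0.31 without Small 1 and -0.25 without Small 2. The other TCA cycle enzymes listed (13 genes) had medians of 0.37 and -0.07 in these 2 comparisons. In 11 of 13 Large was above Medium within both numbers (32.9% of all genes). In 9 both Large libraries were above both Medium libraries (18.3% of all genes). Idh3a, a subunit of isocitrate dehydrogenase, had 359 and 277 CPM for Large 1 and 2, 266 and 183 for Medium and 249.6 and 186 for Small. Fh1, fumarate hydratase, which takes the product of complex II, had 150.4 and 125 CPM for Large 1 and 2, 109 and 72.4 for Medium and 114 and 82.97 for Small.

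Complex III passes electrons from coenzyme Q to cytochrome c. Its core proteins had the smallest differences between Large and Small: Uqcrc1 had 529 and 446 CPM for Large 1 and 2, 375 and 383 for Medium, 489 and 385 for Small and 331 and 291 for All (log2 0.16, SE 0.20), and Uqcrc2 had 269 and 208 CPM for Large 1 and 2, 230.2 and 211 for Medium, 241 and 168 for Small and 219 and 161 for All (log2 0.22, SE 0.27). For Uqcrc1 Medium was the lowest of the 3 size gates, by a small margin against Small 2. Uqcrfs1, the Rieske iron-sulfur protein of the catalytic site, had 249 and 167 CPM for Large 1 and 2, 184 and 166 for Medium, 178 and 132 for Small and 179.7 and 120.2 for All (log2 0.43, SE 0.30). The 5 accessory subunits had a median of 0.55, from 0.37 for Uqcrh to 0.62 for Uqcr11. Uqcrh, the hinge protein, had 199 and 149 CPM for Large 1 and 2, 205 and 189 for Medium, 154 and 115 for Small and 163 and 186 for All, and Uqcr11 had 316 and 178 CPM for Large 1 and 2, 254 and 187 for Medium, 216 and 104 for Small and 220.3 and 126 for All. Uqcrq, next to it in size of difference (log2 0.59), had 209 and 140.4 CPM for Large 1 and 2, 161 and 138 for Medium and 146 and 86.6 for Small. Uqcrh had both Medium libraries above both Small libraries. Cyc1, the cytochrome c1 of this complex, lies outside the name rule and had 303 and 206 CPM for Large 1 and 2, 209 and 164 for Medium and 243 and 150.1 for Small.

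Complex IV, cytochrome c oxidase, had the highest Large against Small median of the 5 complexes, and its 11 broadly expressed subunits were close to one another, from 0.49 to 0.70 on the log2 scale. Cox4i1, the largest nuclear subunit, had 503 and 385 CPM for Large 1 and 2, 406 and 394 for Medium, 369 and 257 for Small and 373 and 332 for All (log2 0.51, SE 0.24). Ndufa4 had 471 and 371 CPM for Large 1 and 2, 402 and 322 for Medium, 319 and 204 for Small and 365 and 212 for All (log2 0.69, SE 0.34). In both genes the 2 Large libraries were above both Small libraries, and Small 2 was the lowest library. Cox5a, a subunit on the matrix side, had 335 and 217 CPM for Large 1 and 2, 229 and 177 for Medium, 223 and 117 for Small and 211 and 120.3 for All, and Cox5b, which binds zinc, had 316 and 209.5 CPM for Large 1 and 2, 247 and 199 for Medium, 221 and 133 for Small and 237 and 137 for All. Cox6c had 289.6 and 215 CPM for Large 1 and 2, 257 and 189.7 for Medium, 223 and 122 for Small and 239 and 139 for All, and Cox7a2 had 238 and 151 CPM for Large 1 and 2, 176 and 126 for Medium, 166 and 74.4 for Small and 184 and 87.1 for All. In these 4 genes Large 2 lay below Small 1, although Large was above Small within each number.

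Cox7a2l (chromosome 17, 83501918 to 83517330) is known as a supercomplex assembly factor for complexes III and IV. It was lower in Large than in Medium, where 12 of 15 tested complex IV genes were higher. Like the others it was higher in Large than in Small, by log2 0.20 (0.24 within number 1 and 0.17 within number 2). It had 105 and 120.4 CPM for Large 1 and 2, 128 and 157 for Medium, 88.7 and 107 for Small and 112 and 124 for All. Both Medium libraries were above all 6 other libraries, and number 2 was above number 1 in each of the 4 groups. The difference was 0.54, SE 0.21 for Medium against Small (edgeR unadjusted p = 0.0362, adjusted p = 1.00) and -0.34, SE 0.21 for Large against Medium (adjusted p = 0.989).

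Tissue-specific forms of complex IV subunits made up a small share of their families. Shares were taken on the TPM scale, which corrects for transcript length. Cox4i2, the lung form, made up at most 0.385% of Cox4i1 and Cox4i2 together, and Cox6a2, the heart and muscle form, 0.189% to 1.91% of the Cox6a pair. Cox6a2 had the largest fitted fold change of the tested members, at a low level that left Large and Small overlapping, with 1.14 and 5.13 CPM for Large 1 and 2, 2.06 and 3.69 for Medium and 0.778 and 1.79 for Small (log2 1.29, SE 0.95). Cox7a1, also of heart and muscle, was 0.206% to 2.29% of Cox7a1 and Cox7a2 together. Cox8b and Ndufa4l2 had 0 counts in every library, which allows up to 3 counts, or 0.178 to 0.219 CPM before TMM scaling. Cox8c had 1 count and Cox7b2 4 counts over all libraries. Cox6b2, known as a testis form, was the exception: it had 37.8 and 17.95 CPM for Large 1 and 2, 29.8 and 19.03 for Medium, 29.04 and 10.5 for Small and 30.5 and 20.8 for All and made up 5.91% to 9.53% of Cox6b1 and Cox6b2 together. Its 4 libraries numbered 1 were above all 4 numbered 2, and Large was above Small within both numbers (log2 0.49, SE 0.59). The floor takes account of counting error alone; no molecular identifiers are described, and reads copied by PCR may not be independent.

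Complex V was followed from its catalytic head to its rotor. The 5 genes of the F1 head and central stalk had the lowest median of its parts (0.36). Atp5b, the catalytic beta subunit and the most abundant member per length (1548 TPM, median of 8 libraries), had 2514 and 2001 CPM for Large 1 and 2, 1795 and 1641 for Medium, 1924 and 1585 for Small and 1815 and 1431 for All. Both Large libraries were above the 6 others (log2 0.36, SE 0.22). Atp5a1, the alpha subunit, had 1257 and 1126 CPM for Large 1 and 2, 965 and 989 for Medium, 1107 and 947 for Small and 871 and 775 for All, with the same separation (log2 0.21, SE 0.18). The gamma subunit Atp5c1, which turns inside the head, had 553 and 431 CPM for Large 1 and 2, 432 and 357 for Medium, 436 and 289 for Small and 458 and 327 for All, and Atp5d, the delta subunit, had 166 and 158 CPM for Large 1 and 2, 142 and 171 for Medium, 140.4 and 129 for Small and 132 and 139 for All. Atp5o, of the peripheral stalk that holds the head still, had 288 and 225 CPM for Large 1 and 2, 234 and 189 for Medium, 231 and 133 for Small and 232 and 142 for All, and this stalk's 4 genes had a median of 0.46. In Atp5d both Large libraries were above both Small libraries, and in Atp5c1 and Atp5o they overlapped.

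The c-ring is the rotor that protons turn, and Atp5g1, Atp5g2 and Atp5g3 are known to encode the same mature protein behind different import sequences. These 3 genes had the highest median of any part of the 5 complexes, 0.69. Atp5g3 (chromosome 2, 73908447 to 73911326) had 447 and 327 CPM for Large 1 and 2, 336 and 287 for Medium, 255 and 179 for Small and 314 and 107 for All (log2 0.83, SE 0.48, the largest of complex V). Atp5g1 had 335 and 191 CPM for Large 1 and 2, 227 and 161 for Medium, 235 and 91.6 for Small and 227 and 105 for All (log2 0.69, SE 0.56). Atp5g2 had 54.4 and 43.2 CPM for Large 1 and 2, 47.6 and 37.7 for Medium, 27.1 and 34.4 for Small and 50.1 and 39.1 for All, with both Small libraries below the 6 others (log2 0.67, SE 0.27; edgeR unadjusted p = 0.0460, adjusted p = 0.975). In Atp5g2 and Atp5g3 both Large libraries were above both Small libraries, while in Atp5g1 Large 2 lay below Small 1. On the TPM scale Atp5g1 and Atp5g3 shared most of the family, at 32.7% to 49.2% and 40.5% to 56.4%, and Atp5g2 gave 4.85% in Small 1 and up to 14.9% in All 2. Reads shared by similar genes were divided by estimation, so the split within this family is uncertain.

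**Figure D2:**
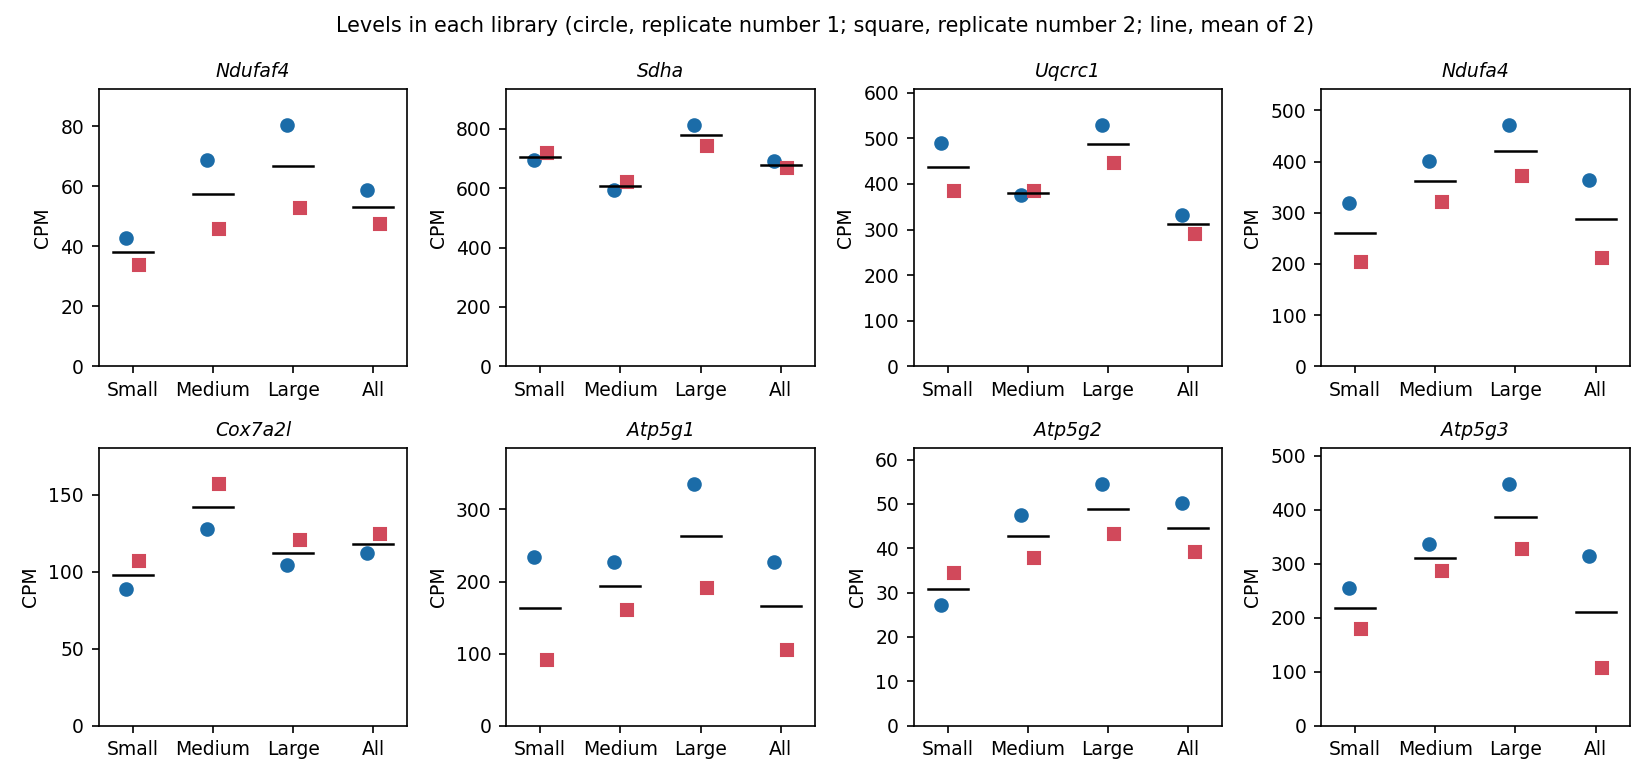
CPM (y axis, from 0) in each library for 8 members, by size gate (x axis); circles are replicate number 1, squares number 2, and the line is the mean of 2. Sdha and Uqcrc1 are lowest in Medium among the size gates, Cox7a2l is highest in Medium, and the 3 c-ring genes are higher in Large than in Small within both numbers.

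Per length, the subunits of a complex were not present in equal amounts of transcript. The median over subunits was 252 TPM for complex I, 342 for complex II, 462 for complex III, 579 for complex IV and 570 for complex V (each gene taken at its median over 8 libraries). Within complex I the range ran from 44.0 TPM for Ndufa11 to 700.1 for Ndufb8, and within complex V from 88.4 for Atp5g2 to 1548 for Atp5b. Assembly factors were lower, at 19.5 (Ndufaf5) to 78.4 TPM (Ndufaf8). Summed over the 88 tested members, transcripts made up 40437 and 31859.5 TPM in Large 1 and 2, 36340.0 and 30389.9 in Medium, 33168 and 23544 in Small, and 32381 and 24955 in All. Large was thus above Medium and Medium above Small within each number, and All lay below Medium in both.

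With the Medium gate the complexes were followed along the size range. Coding length also differed between complexes, as given below. Between Medium and Small the median over all members was 0.31 (0.11 within number 1 and 0.56 within number 2), and 60 of 88 were higher in Medium within both numbers, against 30.1% of all genes. By complex the medians were 0.28, -0.03, 0.29, 0.36 and 0.29 for complexes I to V. For complexes I to V in turn they were 0.10, -0.19, 0.10, 0.16 and 0.09 within number 1 and 0.60, 0.24, 0.56, 0.64 and 0.55 within number 2. Medium lay above Small without overlap in 16 of 88 members (16.6% of all genes), near the background, and below in 2, Sdha and Uqcrc1 (14.3% of all genes). Within both numbers 4 members were lower (29.8% of all genes). edgeR called 0 members (0% of all genes), as did DESeq2, limma-voom and limma-trend without the block (47, 0 and 0 of all 16066 genes). At an unadjusted p under 0.05 edgeR had 1, Cox7a2l (2.81% of all genes were higher at this level), and 0 were lower (1.52% of all genes). Leaving out Small 2 gave a median of -0.03 and leaving out Small 1 gave 0.67; it was 0.11 without Medium 1. Each of these fits sets unequal numbers of libraries 1 and 2 against each other. Primary granule genes were lower here (median -0.47; -0.61 within number 1 and -0.21 within number 2), and the genes of replicating cells had a median of 0.09.

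Between Large and Medium the median over all members was 0.21 (0.28 within number 1 and 0.13 within number 2). Large was higher within both numbers in 62 of 88, against 32.9% of all genes, and lower in 6 (33.3% of all genes). By complex the medians were 0.21, 0.37, 0.20, 0.20 and 0.23 for complexes I to V, with 0.28, 0.47, 0.29, 0.27 and 0.29 within number 1 and 0.11, 0.26, 0.02, 0.14 and 0.17 within number 2. Both Large libraries were above both Medium libraries in 14 of 88 members, or 15.9% (18.3% of all genes), which is near the background. Among them were Ndufv1, Ndufs1, Sdha, Sdhb, Sdhc, Uqcrc1, Atp5a1 and Atp5b. Both were below in 3, Ndufa13, Cox7a2l and Atp5s (17.2% of all genes). edgeR, DESeq2, limma-voom and limma-trend without the block each called 0 members (0%, 0.0124%, 0% and 0.00622% of all genes), and 0 members had an unadjusted edgeR p under 0.05 (0.878% of all genes were higher and 0.996% lower at this level). Without Large 1 the median was -0.03 and without Large 2 it was 0.42, and without Medium 1 and Medium 2 it was 0.35 and 0.04. Primary granule genes were higher in Large than in Medium by a median of 1.53, and genes of replicating cells by 0.74. HSC markers had a median of -0.91 (-1.83 within number 1 and -0.61 within number 2). Within both numbers 9 of 10 were lower (33.3% of all genes). The part of these genes in the respiratory chain values was not tested. The 3 comparisons are not independent, since each gate stands in 2 of them.

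The order Large above Medium above Small held within number 1 for 54 of 88 members (2529 of 16066 genes tested). Within number 2 it held for 60 of 88 (3006 of 16066 genes tested). It held within both for 41, against 5.75% of all genes tested. By complex this was 18 of 36 in complex I, 0 of 4 in complex II, 4 of 8 in complex III, 9 of 15 in complex IV and 8 of 16 in complex V.

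**Figure D3:**
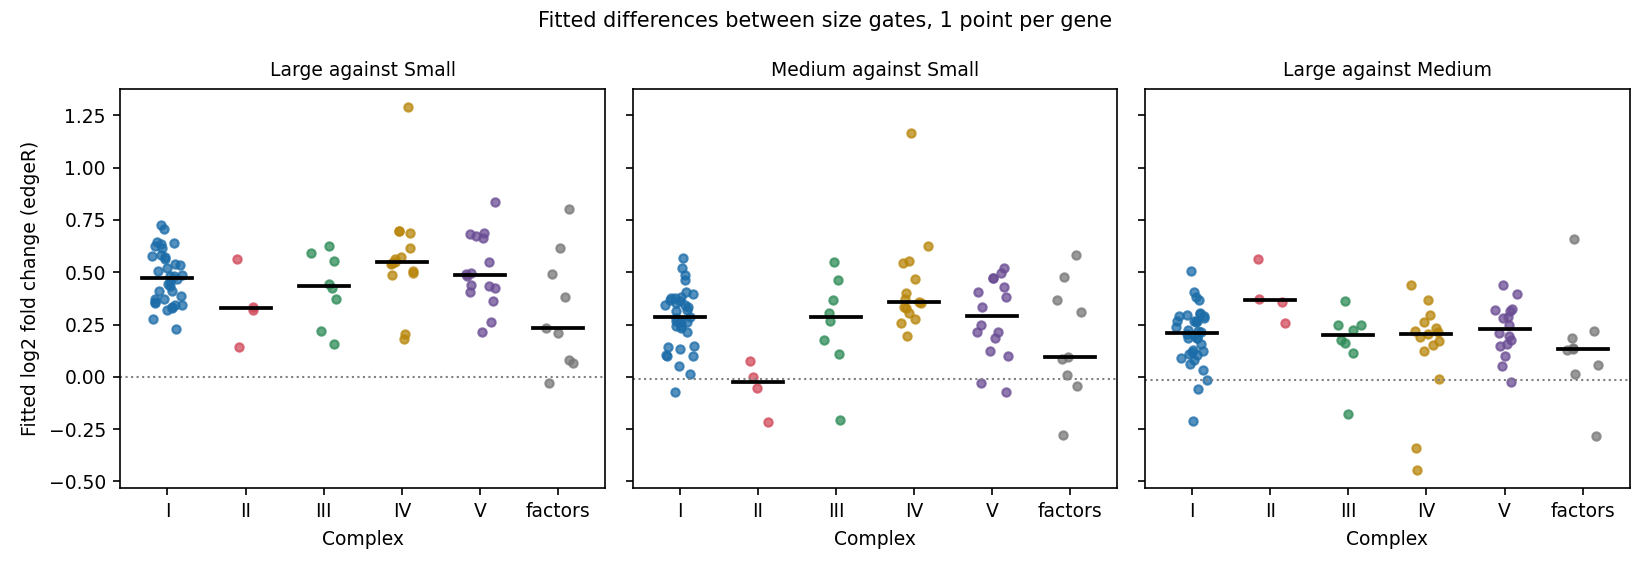
Each point is 1 tested gene, the y axis its fitted log2 fold change (edgeR), the x axis the complex (factors are the assembly factors and Atp5s), black bars are medians and the dotted line is the median of all genes tested. Complex II lies around 0 in Medium against Small (median -0.03) and at 0.37 in Large against Medium, the highest of the 5 complexes there.

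Coding length, which the name rule did not use, varied with where along the size range a member differed. It was taken as the longest annotated coding sequence of a gene in GENCODE M21. For the 44 members of 432 nucleotides or less the median was 0.37 for Medium against Small and 0.18 for Large against Medium. For the 44 longer members (438 to 2181 nucleotides) the values were 0.15 and 0.23. Length moved with the difference outside the respiratory chain as well: 817 other genes with coding sequences of 435 nucleotides or less had medians of 0.23 and 0.01, and 8958 others in the longer range had -0.05 and 0.04. By median transcript length, 829 other short genes had 0.11 and -0.0007. Against Small, Large was higher by a median of 0.55 for the shorter members and 0.41 for the longer ones, where the other genes of these ranges had 0.25 and 0.00. Across the 88 members, Spearman's rho between length and the log2 fold change was -0.70 for Medium against Small and 0.26 for Large against Medium, and across 13184 genes it was -0.18 and -0.06. With length as the median over a gene's protein-coding transcripts, which truncated models shorten for some genes (533 nucleotides for Uqcrc1), rho over the members was -0.56 and 0.24. These correlations describe genes measured in the same libraries, with Medium in both comparisons, and genes are not replicates. The shorter members also differed more between replicate numbers (median of number 1 minus number 2, 0.60) than the longer ones (0.42). Sdha, Sdhb, Sdhc and Sdhd of complex II were all among the longer members, at 477 to 1992 nucleotides. The tested complex IV genes were among the shorter ones, apart from Cox4i1 and Cox5a. Complex and coding length can therefore not be told apart for complexes II and IV. The part of length in the size differences was not tested.

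**Figure D4:**
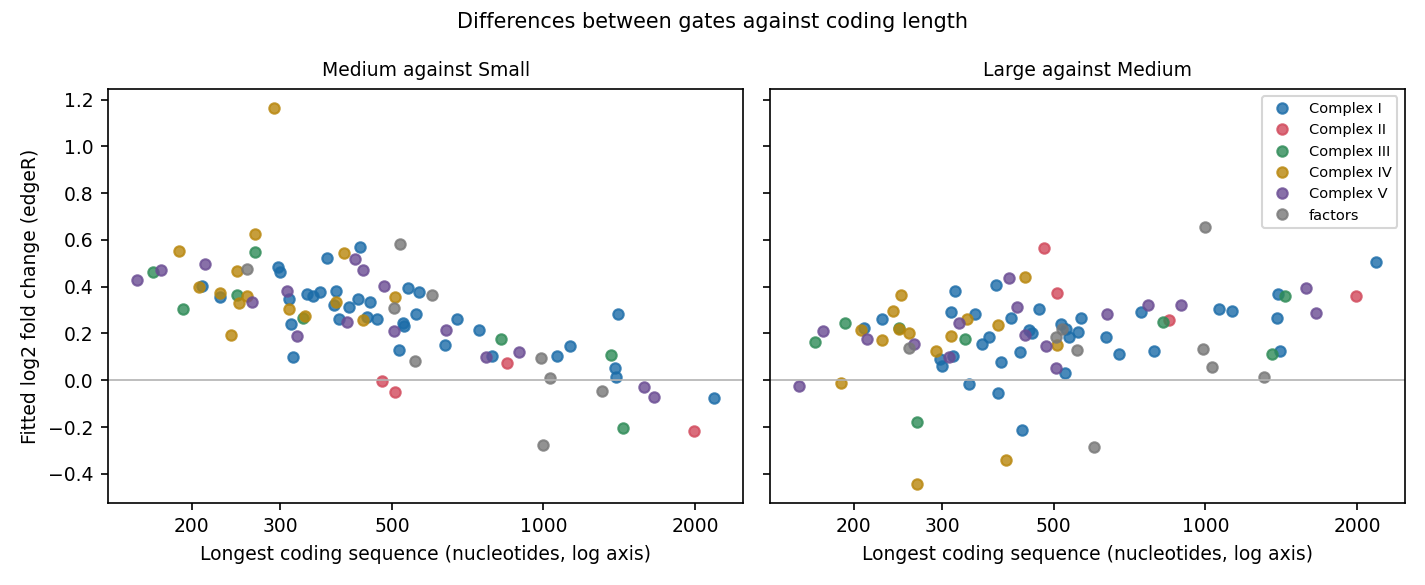
Each point is 1 tested gene; the x axis is the longest coding sequence in nucleotides on a log axis, the y axis the fitted log2 fold change (edgeR), coloured by complex. Shorter genes sit higher in Medium against Small (median 0.37 for the 44 shorter and 0.15 for the 44 longer members), while in Large against Medium the values are 0.18 and 0.23.

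The promoters of the members were read to show the sequences in front of genes that were higher together in Large. RefSeq windows of 300 bases on GRCm38.p6, from 250 before to 50 after the start, were found for 76 of the 93 genes (81 windows). Searched on both strands, the motif CCGGAAG, read by ETS factors such as the respiratory regulator GABP, was in 22.2% of the members' windows, against 8.86% of all 32851 windows and 16.4% of those of tested genes. GCATGCG, the core of the site of nuclear respiratory factor 1 (Nrf1), was in 16.0%, against 3.58% and 5.98%. ATGGCGG, from the site of Yy1, was in 16.0%, against 4.05% and 7.37%. The motifs share no full match with each other, but GCATGCG and its reverse complement overlap, so that 1 site can match both strands. The Large against Small median was 0.54 for the 18 with CCGGAAG, 0.47 for the 13 with GCATGCG, 0.44 for the 12 with ATGGCGG and 0.49 for the 39 with a window and no match. A match is a description of the letters and not of binding. One window per complex is shown, picked after the search among the subunits of the complex as a window with the most different motifs (for complex I, where no window held more than 1 of the motifs, one of those with 2 matches), 5′ to 3′ on the gene's strand, with matches in capitals.
Ndufs3 (chr2:90904672-90904971, minus strand): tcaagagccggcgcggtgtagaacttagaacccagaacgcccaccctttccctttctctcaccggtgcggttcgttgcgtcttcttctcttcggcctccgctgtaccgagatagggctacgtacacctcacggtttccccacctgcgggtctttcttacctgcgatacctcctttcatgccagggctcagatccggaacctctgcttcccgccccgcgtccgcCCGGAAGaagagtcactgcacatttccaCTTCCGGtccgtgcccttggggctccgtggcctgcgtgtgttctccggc
Sdhb (chr4:140961021-140961320, plus strand): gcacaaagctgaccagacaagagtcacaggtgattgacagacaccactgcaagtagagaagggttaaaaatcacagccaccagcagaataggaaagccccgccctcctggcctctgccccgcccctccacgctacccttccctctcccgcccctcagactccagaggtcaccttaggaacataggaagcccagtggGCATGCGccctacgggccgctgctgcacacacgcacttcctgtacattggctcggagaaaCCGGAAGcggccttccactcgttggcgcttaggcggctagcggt
Uqcr11 (chr10:80406772-80407071, minus strand): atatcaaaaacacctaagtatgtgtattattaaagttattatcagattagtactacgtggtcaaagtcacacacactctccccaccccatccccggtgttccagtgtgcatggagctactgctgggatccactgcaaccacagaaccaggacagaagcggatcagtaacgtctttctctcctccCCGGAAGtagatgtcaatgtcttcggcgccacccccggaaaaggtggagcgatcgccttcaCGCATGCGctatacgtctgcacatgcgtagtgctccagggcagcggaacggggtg
Cox6a1 (chr5:115348909-115349208, minus strand): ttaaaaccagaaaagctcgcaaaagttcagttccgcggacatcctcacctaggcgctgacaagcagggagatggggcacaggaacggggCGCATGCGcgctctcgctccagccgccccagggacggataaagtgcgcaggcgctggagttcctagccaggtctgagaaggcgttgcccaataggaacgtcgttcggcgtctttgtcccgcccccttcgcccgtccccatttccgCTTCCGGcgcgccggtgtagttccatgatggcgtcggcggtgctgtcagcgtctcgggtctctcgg
Atp5j (chr16:84834927-84835226, minus strand): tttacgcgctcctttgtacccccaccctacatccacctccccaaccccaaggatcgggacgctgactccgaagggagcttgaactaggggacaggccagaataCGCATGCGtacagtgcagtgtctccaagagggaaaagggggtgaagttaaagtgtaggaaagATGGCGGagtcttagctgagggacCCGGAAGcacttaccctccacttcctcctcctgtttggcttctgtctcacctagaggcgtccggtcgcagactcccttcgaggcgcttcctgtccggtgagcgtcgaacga
Atp5j, of the peripheral stalk of complex V, was the member with a window that held all 3 motifs, while its other window held none of them. It had 482 and 353 CPM for Large 1 and 2, 379.8 and 324 for Medium and 395 and 223 for Small.

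Other genes of the pathway, listed separately, showed how far the pattern reached; edgeR called 0 of them in either direction in any of the 3 comparisons. At an unadjusted p under 0.05 it had 1 of 13 mitochondrially encoded subunits higher in Large against Small (1.77% of all genes). In Medium against Small it had 5 of 13 of them and 1 of 37 assembly factors higher (2.81% of all genes) and 2 of 14 regulators and 1 of 13 TCA cycle enzymes lower (1.52% of all genes); the other tools were not tabulated for these lists. In the 13 subunits encoded in mitochondrial DNA the signs differed between comparisons. In Large against Medium all 13 were lower in each number (33.3% of all genes were; median -0.43), whereas the nuclear subunits had positive medians. In Medium against Small their median was 0.61 (0.99 within number 1 and 0.21 within number 2), and in Large against Small it was 0.08, with opposite signs within the numbers (0.55 within number 1 and -0.34 within number 2). Within complex IV, mt-Co1, the catalytic subunit, had 2200.4 and 2451 CPM for Large 1 and 2, 2757 and 3027 for Medium, 1674 and 3097 for Small and 2115 and 2830.0 for All, and Small 1 was the lowest and Small 2 the highest library, where Cox4i1 had its lowest value in Small 2. Of the 13, mt-Nd6 had the largest difference between Large and Small, with 40.03 and 29.6 CPM for Large 1 and 2 and 8.30 and 21.1 for Small (log2 1.24, SE 0.50).

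Electron carriers and enzymes that feed coenzyme Q had a Large against Small median of 0.31 over 8 genes, 7 of them higher within both numbers (32.9% of all genes). Etfb, of the electron transfer flavoprotein, had 557 and 356 CPM for Large 1 and 2, 423 and 310.1 for Medium and 399.7 and 208 for Small, and cytochrome c (Cycs) had 191 and 119 CPM for Large 1 and 2, 132 and 90.8 for Medium and 134 and 72.7 for Small. Coenzyme Q synthesis had a median of 0.20 over 11 genes. Of these Coq8a, an atypical kinase, went the other way, with 40.03 and 102 CPM for Large 1 and 2, 84.9 and 135 for Medium, 98.2 and 169.7 for Small and 77.8 and 165 for All (log2 -0.91, SE 0.57), and Large was lower within both numbers. Coq3, a methyltransferase of the pathway, had 42.03 and 17.4 CPM for Large 1 and 2, 27.1 and 13.1 for Medium and 26.7 and 6.07 for Small. The 37 tested of 38 other assembly factors had a median of 0.26, with 26 higher in Large within both numbers (32.9% of all genes). Lyrm7, a chaperone of the Rieske protein, had 6.50 and 6.31 CPM for Large 1 and 2, 5.75 and 2.46 for Medium and 3.11 and 3.93 for Small. The 14 transcriptional regulators of respiration had a median of 0.00, with 4 higher (32.9% of all genes), near the background, and 2 lower (31.2% of all genes) within both numbers. Tefm, an elongation factor of mitochondrial transcription, had 25.7 and 13.02 CPM for Large 1 and 2, 18.01 and 12.7 for Medium and 16.9 and 10.2 for Small. Nrf1 had 105 and 101 CPM for Large 1 and 2, 96.1 and 66.2 for Medium and 119.7 and 87.2 for Small, and both Large values lay between those of Small. Pprc1, a coactivator related to PGC-1, had 79.1 and 89.8 CPM for Large 1 and 2, 79.8 and 56.5 for Medium and 104 and 117 for Small, with both Small libraries above the other 4.

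Among the unfractionated libraries, All 1 stood at a median deviation of 0.16 over the members, between Small 1 and Medium 1, and All 2 at -0.44, between Small 2 and Medium 2. All 2 was also the library with the lowest primary granule sum, at 334 CPM, and the highest HSC marker sum, at 3417 CPM.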

How the data were processed

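RNA-seq libraries of sorted HSCs were compared over 3 size gates. Per the submitters' processing notes, the tools were STAR (2.5.3a), RSEM (1.3.0) and SAMtools (1.3), with build mm10. The sources used here do not give the annotation release, the strand setting or filters. Estimated counts were deposited by the authors per gene, as whole numbers and not scaled between libraries. The second table deposited by the authors holds log2(TPM + 1) values, converted back to TPM here to compare levels between genes. Gene IDs were matched to GENCODE M21 (GRCm38, the assembly of mm10) for 50376 of 50686 IDs. Counts were tested with edgeR 4.0.16 in R 4.3.3 (quasi-likelihood, TMM, robust, filterByExpr with a minimum count of 10, group as the only term, all 8 libraries, 4 residual degrees of freedom), with two-sided p-values adjusted by Benjamini-Hochberg over 16066 genes and a threshold of 0.05. The SE of a fold change was derived from its p-value. Log2 CPM within a number used a prior count of 2. An exact test of 2 against 2 libraries cannot give a two-sided p under 0.333. The script was tested on simulated data. Coding lengths were chosen after a first measure, the median transcript length, was seen to be distorted by truncated models. Alternatives used DESeq2 1.42.0, limma 3.58.1, other scalings and filters, the replicate number as a block, and each library left out. Named members were those listed by role, paralog groups, the 2 highest and 2 lowest differences of Large against Small in each complex (mean of at least 5 CPM) and any past the threshold. One gene that the rule names is not reported here. In the other lists up to 3 genes with the largest difference were named. Further genes, such as Ndufb5, Ndufb9, Nrf1, mt-Co1 and Atp5j, were chosen after their values were seen. Members, lists and tests were chosen with earlier results of these data known. Overlapping or near-identical genes and pseudogenes can share reads, and those counts are uncertain. Drug-treated HSCs mentioned in the series design are not analysed here.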

Additional observations from a re-analysis of the deposited data

How the results depend on the processing

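Medians for all members and for each of 5 complexes, 18 in all over the 3 comparisons, were recomputed under 8 planned settings that keep every library of the 2 groups, and 144 of 144 values stayed within 1 SD between replicates. This bound is wide: for all members in Large against Medium the SD was 0.26, above the main median of 0.21. The member median ran from 0.37 to 0.51 for Large against Small, from 0.10 to 0.21 for Large against Medium and from 0.28 to 0.36 for Medium against Small. The lowest of the first came from limma-trend on log2(TPM + 1), where the median of all genes was itself -0.11. The replicate numbers are not stated to mark a shared animal or day, but same-numbered libraries deviated together (correlation 0.36 to 0.44 for the 6 pairs of groups). With a replicate block, edgeR called 0 members in each comparison and the member medians were 0.51, 0.20 and 0.36 for Large against Small, Large against Medium and Medium against Small; at an unadjusted p under 0.05, 66, 15 and 35 of 88 were higher, against 9.44%, 8.18% and 6.11% of all genes. Chosen after seeing the data, DESeq2 with the block called 45, 3 and 5 members (1439, 946 and 525 of all 16066 genes). Limma-voom with the block, chosen then as well, called 3, 0 and 0 (1.28% of all genes in the first). Without the block and with each library left out in turn, edgeR called 0 members. Leaving out each library, for Large against Small the median ran from 0.18 to 0.92 over all members, 0.16 to 0.96 for complex I, 0.13 to 0.63 for complex II, 0.15 to 0.73 for complex III, 0.24 to 1.02 for complex IV and 0.21 to 0.93 for complex V. For Large against Medium these ranges were -0.03 to 0.42, -0.03 to 0.42, 0.22 to 0.44, -0.08 to 0.48, -0.0027 to 0.40 and 0.021 to 0.45. For Medium against Small they were -0.025 to 0.67, -0.036 to 0.71, -0.25 to 0.31, -0.028 to 0.70, 0.039 to 0.80 and -0.0017 to 0.66. The highest values of Large against Small and of Medium against Small came without Small 1, and the lowest without Small 2 except for complex III in Large against Small (without Large 1). With 2 libraries a group, a gate left with 1 library is assumed to vary like the others.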
